A study of Mus musculus with 12 samples.

Results

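The barrier genes Cldn1, Cdh1, Cldn12, Ocln, Tjp1, Cgn, F11r and Marveld2 were followed through superior cervical ganglion (SCG) tissue, 3D cultured SCG cells and 2D cultured SCG cells. They are 8 of the 18193 genes that the arrays measured with a probe set of their own. Cldn1 and Cdh1 were picked for their rise in tissue, so their tissue values are given as a description without a test. The other 6 were chosen by their role at junctions. The SCG is a sympathetic ganglion of the neck, and the study asked whether cells grown in scaffolds resemble fresh tissue more than cells on a flat surface do. All samples came from CD1 mice, whose age the labels give as 21 days, while the methods name neonatal mice. The 4 tissue samples were freshly dissected whole ganglia. The 3D group holds 4 cultures kept for 5 days in porous polystyrene scaffolds. The 2D group holds 4 cultures kept flat for the same time, on a polystyrene Petri dish by the labels and on glass bottom dishes by the methods. Both culture surfaces were coated with collagen. The ganglia were digested with collagenase and plated without sorting, so that every array reads neurons, glia, fibroblasts and other cells together. The labels call the replicates biological. Expression levels are log2 values from the RMA algorithm, and a difference of 1 is a doubling.

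Tight junctions seal the space between neighbouring cells. Their strands are built of claudins, occludin and tricellulin, junctional adhesion molecules sit beside the strands, and plaque proteins such as ZO-1 and cingulin tie them to actin. E-cadherin holds epithelial cells together at the adherens junction just below. In peripheral nerve, claudin-1 is known from the perineurium, the cell sheath that closes nerve bundles off from the surrounding tissue, and E-cadherin from the contacts that Schwann cells make with their own folds. Proteins of the Snail and Zeb families are known to repress Cdh1 and some tight junction genes by binding a short DNA word called an E-box.

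Promoter windows from RefSeq (build GRCm38.p6, 250 bases before to 50 bases after a transcription start) were read for 7 of the 8 genes. Cdh1 is not in the table of windows. The E-box word CAGGTG and its reverse complement CACCTG, which between them cover both strands, were searched in each. Other E-boxes of the general form CANNTG were not searched. CAGGTG or CACCTG occurred in 20.2% of the 32851 windows of all genes. This share counts windows, and a gene with several starts has several, so it is no share of genes. Among the barrier genes CAGGTG or CACCTG occurred in windows of F11r, Ocln and Marveld2. Neither was found in those of Cldn1, Cldn12, Tjp1 and Cgn. The windows printed here are those of the genes with this word and, for contrast, that of Cldn1, which was picked for its rise in tissue. Each is written from 5′ to 3′ on the strand of its gene, with CAGGTG or CACCTG in capitals.
Cldn1, chr16:26371790-26372089, minus strand, neither word: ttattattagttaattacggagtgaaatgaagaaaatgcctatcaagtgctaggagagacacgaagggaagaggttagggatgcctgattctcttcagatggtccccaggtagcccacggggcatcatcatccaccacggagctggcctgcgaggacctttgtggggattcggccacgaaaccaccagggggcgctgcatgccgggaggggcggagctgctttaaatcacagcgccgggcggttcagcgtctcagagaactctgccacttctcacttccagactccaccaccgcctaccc
F11r, chr1:171437311-171437610, plus strand, CACCTG at position -122 from the start: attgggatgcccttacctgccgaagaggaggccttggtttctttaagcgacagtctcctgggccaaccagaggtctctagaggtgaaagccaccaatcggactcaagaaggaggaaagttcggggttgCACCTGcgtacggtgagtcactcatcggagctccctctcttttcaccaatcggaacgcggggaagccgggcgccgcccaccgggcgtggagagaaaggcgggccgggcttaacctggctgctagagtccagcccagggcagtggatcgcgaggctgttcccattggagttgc
Ocln, chr13:100552669-100552968, minus strand, CAGGTG at position 8: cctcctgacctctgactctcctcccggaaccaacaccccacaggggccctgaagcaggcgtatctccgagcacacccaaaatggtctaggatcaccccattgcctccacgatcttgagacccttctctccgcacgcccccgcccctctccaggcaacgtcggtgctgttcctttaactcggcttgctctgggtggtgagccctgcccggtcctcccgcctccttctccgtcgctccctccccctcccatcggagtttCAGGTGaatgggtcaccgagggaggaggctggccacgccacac
Marveld2, chr13:100616922-100617221, minus strand, CAGGTG at position 44: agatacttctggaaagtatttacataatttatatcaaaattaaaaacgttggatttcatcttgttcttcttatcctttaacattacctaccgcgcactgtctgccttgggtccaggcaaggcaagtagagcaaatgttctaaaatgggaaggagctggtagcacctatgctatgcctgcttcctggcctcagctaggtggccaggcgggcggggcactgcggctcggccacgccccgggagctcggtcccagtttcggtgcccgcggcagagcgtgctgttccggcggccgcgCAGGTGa
A match describes the letters of a window and not a bound site, and a window without a match says only that these letters are not in it. RefSeq lists a further start for Ocln and one for Marveld2, whose windows overlap the printed ones. In the further Ocln window, CAGGTG at position -213 is the printed site counted from the other start. A CAGGTG at position -68 is a separate site. In the further Marveld2 window, CAGGTG at position 17 is again the printed site.

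Of 12 markers of sympathetic neurons, Dbh and Slc6a2, an enzyme of noradrenaline synthesis and the noradrenaline transporter, read at least 10.79 on all 12 arrays. The lowest reading of the list was 6.56, that of the transcription factor gene Gata3 on 3D replicate 3. The tissue arrays of replicates 2 and 3 stood apart from the rest. Their values spanned a narrower range, with an SD over all probe sets of 2.14 and 1.932, against 2.309 and 2.323 on tissue replicates 1 and 4 and 2.348 to 2.417 on the cultures. Their lower quartiles of 5.11 and 5.31 lay above the 4.76 to 4.90 of the other arrays, so that dim probe sets read higher there. Transcripts of skeletal muscle were high on tissue replicates 2, 3 and 4, where 12 muscle markers summed to log2 levels of 12.83, 11.98 and 12.77. On tissue replicate 1 the same sum was 9.30, near the 9.04 to 9.24 of the cultures. Values without tissue replicates 2 and 3 are given below for the barrier genes that passed. For other genes and lists they are given only in part, mostly where leaving them out changed a call or clearly moved a difference. Where none is given, a call may also have changed.

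None of the 8 genes passed limma's test between 3D and 2D cultured cells, and tissue differed from both cultures for some of them. Against 2D cells, 2 of the 6 genes tested rose in tissue (Ocln and F11r) and 0 fell, where 9.87% of all genes rose and 14.3% fell. Against 3D cells, 4 of the 6 rose (Cldn12, Ocln, Marveld2 and F11r) and 0 fell, where 15.5% of all genes rose and 20.1% fell. Both comparisons share the tissue arrays. Between 3D and 2D the count was 0 of 8, where 0.0165% of all genes passed. Before adjustment 2 of the 8 had a limma p under 0.05 in this comparison (Cldn1 and Cldn12), and Cldn12, 1 of the 8, had so in the methods' t-test. All 4 tissue arrays read above all 8 culture arrays for 2 of the 6 genes not picked by value (Ocln and F11r), as for 12.1% of all genes, and the reverse held for 0 of the 6, against 17.0% of all genes. In these bulk samples fewer cells of a type and less RNA per cell cannot be told apart.

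**Figure D1:**
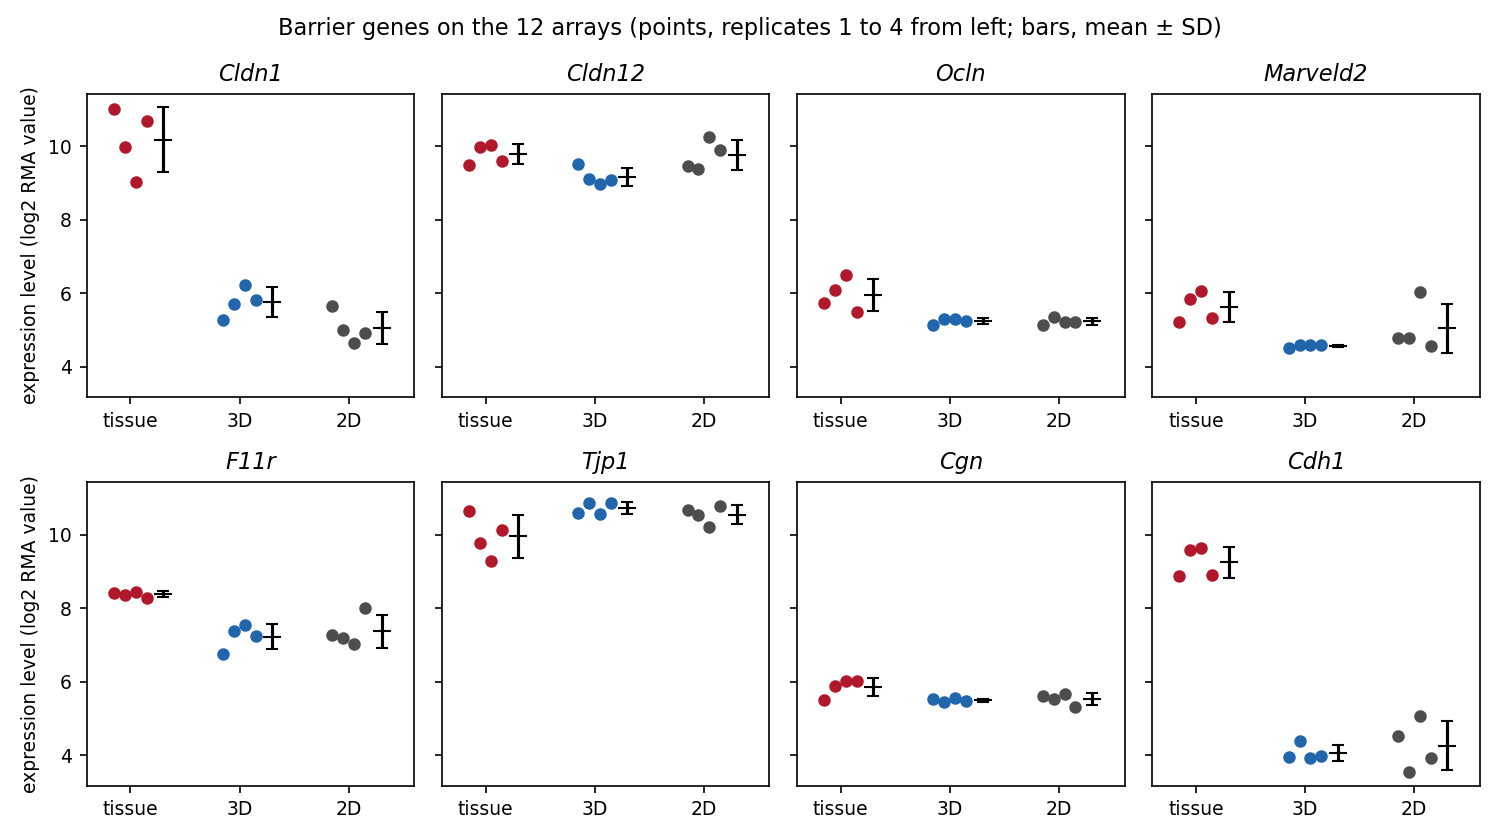
RMA expression level (log2, vertical axis) of the 8 barrier genes on tissue, 3D and 2D arrays (horizontal axis); each point is 1 array, in the order of replicates 1 to 4, and the bars give the mean ± SD of 4 arrays. Cldn1 and Cdh1 lie at 8.88 or more in tissue and at 6.24 or less in the cultures, while the tissue and culture values of Tjp1, Cldn12, Cgn and Marveld2 overlap; heights of different panels come from different probes and are not comparable.

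Cldn1 codes for claudin-1, a sealing protein of tight junction strands. Its probe set read 11.02, 9.99, 9.04 and 10.70 on tissue replicates 1 to 4, 5.27, 5.71, 6.24 and 5.83 on the 3D arrays and 5.65, 5.01, 4.64 and 4.91 on the 2D arrays. The lowest tissue array lay 2.80 log2 units above the highest culture array, and tissue replicates 1 and 4 read highest. The mean was 10.19 ± 0.88 in tissue, 5.76 ± 0.40 in 3D cells and 5.05 ± 0.43 in 2D cells (SD, n = 4 each). Tissue was thus 35.1-fold above 2D cells (a log2 difference of 5.13) and 21.5-fold above 3D cells (4.42), the difference for which the gene was picked. Without tissue replicates 2 and 3 these differences were 5.81 and 5.10. On tissue replicate 1, where the muscle markers were near the level of the cultures, Cldn1 read 11.02, the highest of the 12 arrays. A link between Cldn1 and the muscle transcripts was not tested. For 3D against 2D cells the log2 difference was 0.71 (95% CI 0.14 to 1.28, adjusted p = 0.346 from limma), and the lowest 3D array, replicate 1, read below the highest 2D array, also replicate 1. The exact permutation test gave a two-sided p of 0.0571, and it cannot give one below 0.0286 at this number of arrays. A further 3 probe sets carry the symbol Cldn1. The brightest of these read 5.79, 5.41, 5.32 and 6.49 in tissue, 4.84 to 5.26 in 3D cells and 4.86 to 5.14 in 2D cells, again with every tissue array above the cultures. The other 2 stayed between 3.16 and 4.27 on all 12 arrays, near the dim end of the scale. So the size of the Cldn1 difference depended on the probe set, and the mean of the 4 probe sets differed by 1.54 between tissue and 2D cells and by 1.34 between tissue and 3D cells.

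Cldn12 codes for claudin-12, a claudin without the C-terminal motif that binds ZO proteins. It read 9.50, 9.99, 10.04 and 9.61 in tissue, 9.52, 9.11, 8.97 and 9.08 in 3D cells and 9.48, 9.39, 10.26 and 9.91 in 2D cells. The 3D arrays of replicates 2, 3 and 4 were the lowest of all, while replicate 1 of the 3D cells lay within the range of tissue. Tissue exceeded 3D cells by 0.61 (standard error 0.18, adjusted p = 0.0302 from limma), although the exact permutation p was 0.0571. The difference of tissue from 2D cells was 0.03 (95% CI -0.50 to 0.55, adjusted p = 0.943), and that of 3D from 2D cells -0.59 (95% CI -1.06 to -0.12, adjusted p = 0.336). A second probe set of Cldn12 ran the other way, with 7.86, 6.94, 6.29 and 7.89 in tissue, 8.34, 8.0, 7.73 and 8.01 in 3D cells and 8.31, 8.14, 8.51 and 8.67 in 2D cells. On it tissue fell by 1.16 against 2D cells (adjusted p = 0.0439) and differed by -0.78 from 3D cells (adjusted p = 0.114). The rise of Cldn12 against 3D cells therefore holds for 1 of its 2 probe sets. Without tissue replicates 2 and 3 it was 0.39 (adjusted p = 0.0801), and it also missed the threshold without any 1 of 3D replicates 2, 3 and 4 (adjusted p from 0.0831 to 0.0876) or tissue replicate 2 (adjusted p = 0.0817).

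Ocln codes for occludin, a strand protein with MARVEL-type membrane spans. Its level was 5.73, 6.09, 6.49 and 5.48 in tissue, 5.15, 5.31, 5.31 and 5.24 in 3D cells and 5.14, 5.37, 5.22 and 5.21 in 2D cells. All tissue arrays read above all cultures, with a gap of 0.11 between tissue replicate 4 and the highest 2D array. Ocln rose by 0.71 against 2D cells (adjusted p = 0.0464 with a standard error of 0.22) and by 0.69 against 3D cells (adjusted p = 0.0333 with a standard error of 0.21), with an exact permutation p of 0.0286 in both. A second, dimmer probe set read 4.96, 3.69, 4.22 and 4.55 in tissue, 3.41 to 3.58 in 3D cells and 3.27 to 3.46 in 2D cells. It rose by 1.03 (adjusted p = 0.0217) and 0.86 (adjusted p = 0.0270), so both probe sets moved the same way. On the first probe set the highest readings were those of tissue replicates 2 and 3, the arrays with raised lower quartiles, whereas on the second tissue replicate 1 was highest. Without replicates 2 and 3 the rise of the first was 0.37 against 2D cells (adjusted p = 0.0851) and 0.35 against 3D cells (adjusted p = 0.0308). The part of the raised lower quartiles in the result was not tested. The call against 2D cells was lost without any 1 of the 2D arrays or tissue replicate 2 or 3 (adjusted p from 0.0512 to 0.120), and the call against 3D cells without any 1 of the 3D arrays or tissue replicate 2 (adjusted p from 0.0709 to 0.0867). The 2 cultures differed by 0.02 in 3D minus 2D (95% CI -0.16 to 0.19, adjusted p = 0.952).

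Marveld2 codes for tricellulin, the protein of the corners at which 3 cells meet. Tissue arrays read 5.23, 5.86, 6.07 and 5.34, 3D arrays 4.52, 4.59, 4.59 and 4.59, and 2D arrays 4.79, 4.78, 6.03 and 4.58. The 3D arrays lay together below all tissue arrays, and 2D replicate 3 alone among the cultures reached the tissue range. Marveld2 rose 2.07-fold against 3D cells (log2 difference 1.05, standard error 0.20, adjusted p = 0.00406, exact permutation p = 0.0286), and by 0.71 without tissue replicates 2 and 3 (adjusted p = 4.3e-04). Against 2D cells the difference of 0.58 did not pass (95% CI -0.19 to 1.35, adjusted p = 0.221), and without 2D replicate 3 it was 0.91 (adjusted p = 0.0385). Of 27 epithelial markers and regulators, 10 (37.0%) were highest among the cultures on 2D replicate 3, as were 26.3% of all genes. Grhl1 and Grhl3, epithelial transcription factors, read 6.54 and 6.29 there, against 5.11 to 5.71 and 4.68 to 5.63 on the other 7 cultures, while the splicing regulator Esrp1 read 3.73, its lowest culture value. The difference of 3D from 2D cells was -0.47 (95% CI -1.12 to 0.17, adjusted p = 0.565).

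F11r codes for JAM-A, an adhesion molecule of the immunoglobulin family at tight junctions and on platelets and leukocytes. It had the closest tissue values of the 8 genes, 8.43, 8.37, 8.45 and 8.27, with 6.75, 7.39, 7.55 and 7.25 in 3D cells and 7.27, 7.19, 7.02 and 8.02 in 2D cells. No culture array reached the tissue range, and 2D replicate 4 came nearest. F11r rose 2.01-fold against 2D cells (log2 difference 1.01, standard error 0.22, adjusted p = 0.0138) and 2.21-fold against 3D cells (log2 difference 1.15, standard error 0.18, adjusted p = 0.00170), with an exact permutation p of 0.0286 in both. Without tissue replicates 2 and 3 the differences kept their size, at 0.98 (adjusted p = 0.0530) and 1.12 (adjusted p = 0.00287). A dimmer second probe set differed by 0.30 from 2D cells (adjusted p = 0.123) and by 0.22 from 3D cells (adjusted p = 0.175). The difference of 3D from 2D cells was -0.14 (95% CI -0.69 to 0.41, adjusted p = 0.857).

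Tjp1 and Cgn are the plaque genes. Tjp1, which codes for ZO-1, the scaffold that binds claudins and occludin, read 10.65, 9.78, 9.28 and 10.14 in tissue, 10.61, 10.87, 10.58 and 10.86 in 3D cells and 10.68, 10.53, 10.21 and 10.80 in 2D cells. Tissue replicate 1 lay within the cultures and tissue replicates 2, 3 and 4 below all of them. The differences did not pass the test, at -0.59 from 2D cells (95% CI -1.23 to 0.05, adjusted p = 0.149) and -0.77 from 3D cells (95% CI -1.37 to -0.16, adjusted p = 0.0536). Without tissue replicate 1 they were -0.82 (adjusted p = 0.0432) and -0.997 (adjusted p = 0.00994), and without tissue replicates 2 and 3 they were -0.16 (adjusted p = 0.638) and -0.33 (adjusted p = 0.135). Tjp1 differed by 0.17 between 3D and 2D cells (95% CI -0.14 to 0.49, adjusted p = 0.662).

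Cgn codes for cingulin, which links the plaque to actomyosin. It read 5.50, 5.88, 6.03 and 6.03 in tissue, 5.52, 5.44, 5.55 and 5.47 in 3D cells and 5.61, 5.53, 5.67 and 5.31 in 2D cells. Tissue replicates 2, 3 and 4 lay above every culture and tissue replicate 1 lay among them. Cgn differed by 0.33 from 2D cells (95% CI -0.05 to 0.71, adjusted p = 0.173), by 0.36 from 3D cells (95% CI 0.03 to 0.70, adjusted p = 0.0861) and by -0.03 between 3D and 2D cells (95% CI -0.24 to 0.17, adjusted p = 0.910). Without tissue replicate 1 the difference from 3D cells was 0.48 (adjusted p = 0.0189). The second probe set of Cgn differed by 0.04 and -0.03 from 2D and 3D cells (adjusted p = 0.868 and 0.915).

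Cdh1 codes for E-cadherin, the adhesion protein of epithelial adherens junctions, and is measured by 1 probe set. It read 8.88, 9.59, 9.65 and 8.90 in tissue, 3.96, 4.39, 3.93 and 3.97 in 3D cells and 4.52, 3.55, 5.07 and 3.92 in 2D cells. The gap between the lowest tissue array and the highest culture array, 2D replicate 3, was 3.81 log2 units. Means were 9.26 ± 0.42 in tissue, 4.06 ± 0.22 in 3D cells and 4.26 ± 0.67 in 2D cells (SD, n = 4 each), and 7 of the 8 culture values lay below the lower quartile of their array, where a fold is an estimate close to background. Tissue was 31.8-fold above 2D cells (log2 difference 4.99) and 36.6-fold above 3D cells (5.19), again the difference for which the gene was picked. Without tissue replicates 2 and 3, which read highest, the differences were 4.62 and 4.83. On tissue replicate 1, with muscle markers near the level of the cultures, Cdh1 read 8.88, its lowest tissue value. On tissue replicates 2, 3 and 4, with muscle sums of 12.83, 11.98 and 12.77, it read 9.59, 9.65 and 8.90. A link between Cdh1 and the muscle transcripts was not tested. For 3D against 2D cells the difference was -0.20 (95% CI -0.88 to 0.48, adjusted p = 0.830, exact permutation p = 0.600).

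**Figure D2:**
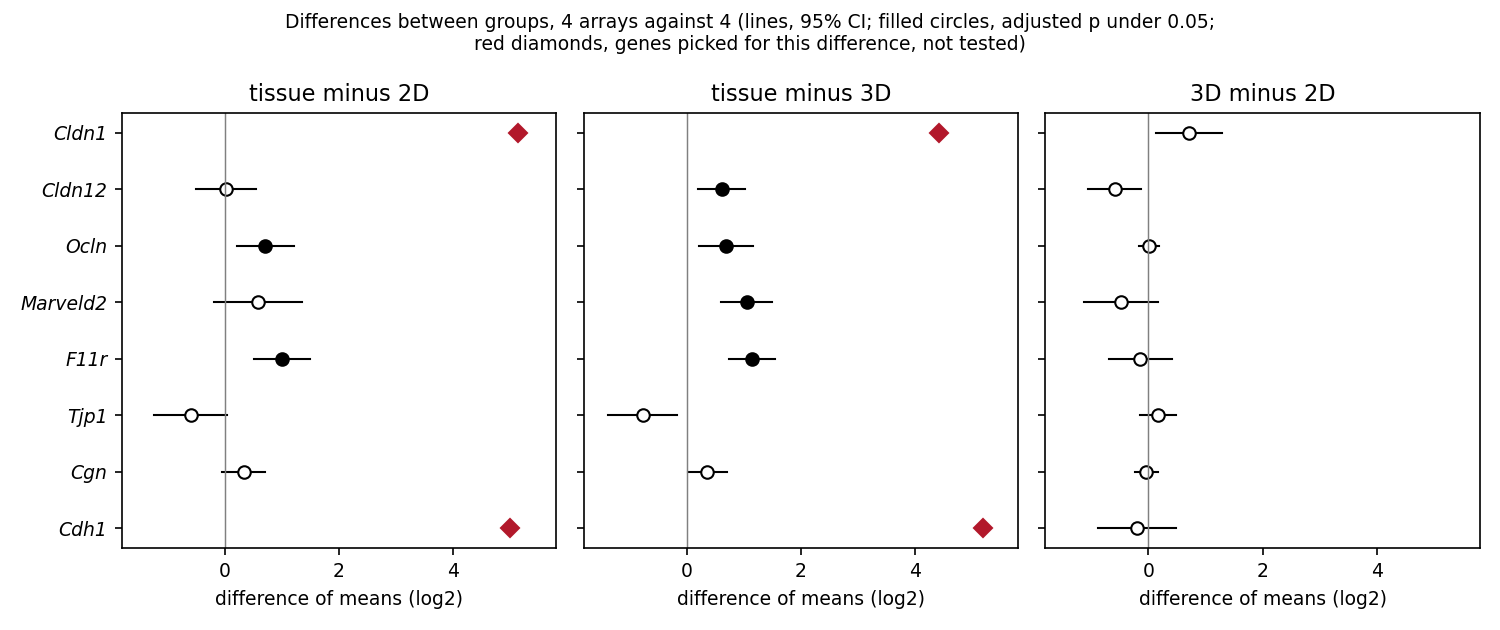
Log2 difference of means (horizontal axis) of each barrier gene for tissue minus 2D, tissue minus 3D and 3D minus 2D, 4 arrays against 4; lines are 95% confidence intervals, filled circles have an adjusted p under 0.05 from limma and red diamonds mark Cldn1 and Cdh1 where they were picked for the difference and not tested. The 6 other genes lie between -0.77 and 1.15 in the tissue comparisons, and all 8 open circles lie between -0.59 and 0.71 for 3D minus 2D.

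Cldn1 and Cdh1 did not rank the tissue arrays alike. Cldn1 was highest on replicates 1 and 4 and Cdh1 on replicates 2 and 3. Kcnj13 and Lypd2, listed as perineurial markers, followed the first order. Kcnj13, a potassium channel, read 8.93, 7.15, 7.14 and 9.39 in tissue, 5.17 to 5.36 in 3D cells and 5.07 to 5.37 in 2D cells. Lypd2 read 8.85, 7.69, 7.64 and 8.70 in tissue, 5.96 to 6.20 in 3D cells and 5.89 to 6.09 in 2D cells. Both were higher on tissue replicates 1 and 4, as Cldn1 was. This order was not particular to perineurial genes. Both replicates 1 and 4 exceeded both others for 8 of 10 perineurial, 9 of 10 fibroblast and 8 of 12 sympathetic markers and for 36.0% of all genes, and among the perineurial markers Slc2a1 ran the other way. The order of Cdh1 was found for 14 of the 27 epithelial genes and for 31.9% of all genes. It was not particular to epithelial genes, since 16 of 23 other claudins and strand proteins (69.6%) had it too. Tissue replicates 2 and 3 are also the arrays on which dim probe sets read higher. The genes with the most similar profiles were found by the root mean square difference of mean-centred log2 levels over the 12 arrays, a measure dominated by the gap between tissue and cultures. The 5 nearest to Cldn1 were Abi3bp (0.58), Dpt (0.69), Tenm2 (0.74), Sox17 (0.78) and Mcf2 (0.80). Those nearest to Cdh1 were Tmem255a (0.45), Chodl (0.60), Tenm2 (0.63), Gpm6a (0.68) and Gng4 (0.76). Tenm2, a teneurin of cell contacts, was on both lists and read 10.87, 10.71, 9.65 and 10.56 in tissue, 5.42 to 5.99 in 3D cells and 5.10 to 6.94 in 2D cells. Dpt, which codes for the matrix protein dermatopontin, read 9.73, 8.59, 8.84 and 9.40 in tissue, 5.39 to 6.01 in 3D cells and 5.20 to 5.46 in 2D cells. Tmem255a, a membrane protein, read 10.45, 11.69, 11.99 and 9.98 in tissue. Its highest culture reading, 7.31, was on 2D replicate 3, as was that of Cdh1 and of 26.3% of all genes. The cultures were among the arrays by which Tmem255a was found. On the 3D arrays Tmem255a was highest on replicate 4 (6.67) and Cdh1 on replicate 2 (4.39).

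**Figure D3:**
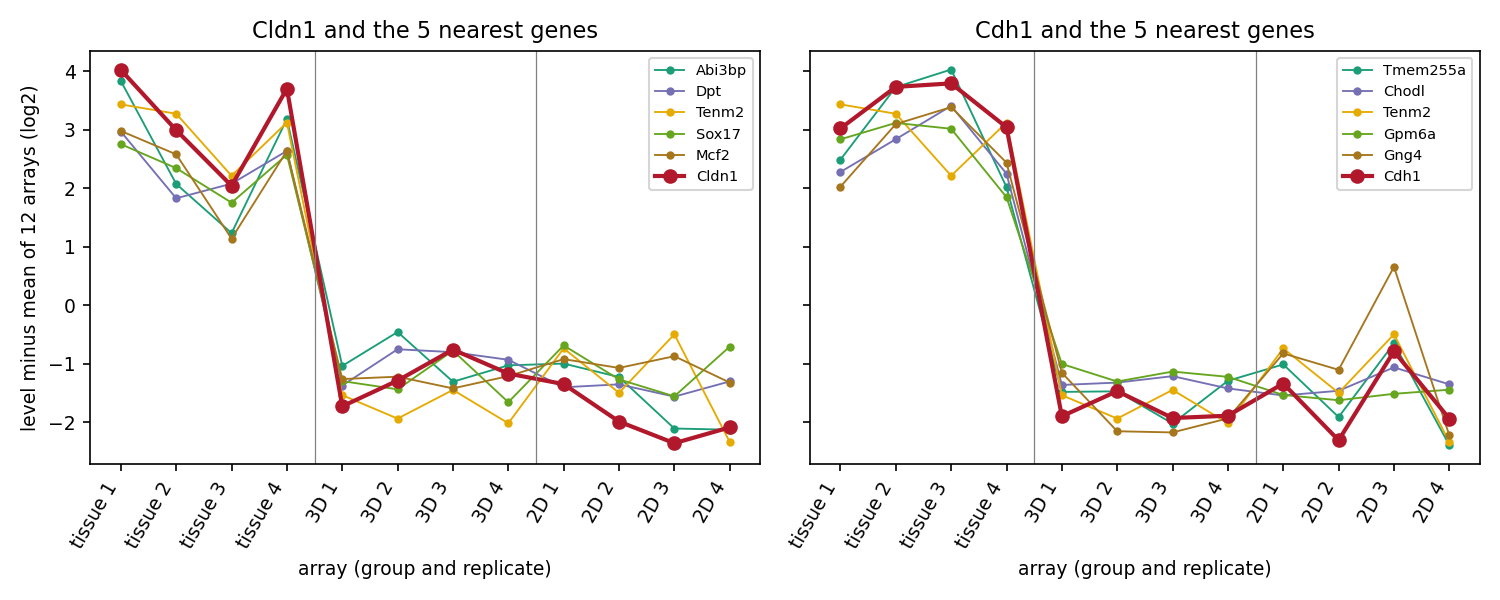
Log2 level minus the mean of the 12 arrays (vertical axis) of Cldn1 (left) and Cdh1 (right, both thick red) with the 5 genes nearest to each, on tissue, 3D and 2D arrays (horizontal axis, replicates 1 to 4 in each group). Cldn1 peaks on tissue replicates 1 and 4 (11.02 and 10.70 before centring) and Cdh1 on replicates 2 and 3 (9.59 and 9.65).

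The rest of the junction genes moved in both directions. Beyond the 8, 4 lists held 65 genes. Against 2D cells 9 of these rose and 11 fell in tissue, and against 3D cells 11 rose and 12 fell, shares of 13.8% and 16.9% higher and of 16.9% and 18.5% lower, against the 9.87% and 15.5% higher and the 14.3% and 20.1% lower of all genes. The median log2 difference of the 65 genes was 0.19 against 2D cells and 0.09 against 3D cells, where that of all genes was 0.03 in each comparison. The balance depended on the scaling. After cyclic loess 11 rose and 7 fell against 2D cells and 15 rose and 12 fell against 3D cells, and after centring on bright probe sets these counts were 13 and 7, and 16 and 10. They were 9 and 6, and 19 and 14, without tissue replicates 2 and 3. For 3D against 2D cells 0 of the 65 passed limma, with 9 under 0.05 before adjustment, and 8 were so in the methods' t-test without adjustment.

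Of 23 other claudins and strand proteins, 3 (13.0%) rose and 1 (4.3%) fell against each culture. Of all genes, 9.87% rose and 14.3% fell against 2D cells, and 15.5% rose and 20.1% fell against 3D cells. Without tissue replicates 2 and 3, 4 of the 23 rose and 1 fell against 2D cells, and 4 rose and 3 fell against 3D cells. Cldn5, the claudin of endothelial cells, rose by 1.79 against 2D cells (adjusted p = 3.2e-04) and by 1.75 against 3D cells (adjusted p = 6.0e-05). It is also on the endothelial list, of which 8 of 12 genes rose against each culture, where 9.87% and 15.5% of all genes rose. On that list 1 gene fell against 2D cells and 0 against 3D cells. Without tissue replicates 2 and 3, 10 rose against 2D cells and 11 against 3D cells, and 0 fell. Cldn22 rose by 1.40 (adjusted p = 0.00237) and 1.25 (adjusted p = 0.00144). Cldn8, a claudin known from the kidney tubule, read 4.33, 5.95, 7.0 and 4.96 in tissue, 3.88 to 4.05 in 3D cells and 3.89 to 4.05 in 2D cells. It was thus above the cultures on every tissue array and highest on replicates 2 and 3, and rose by 1.62 and 1.61 (adjusted p = 0.0452 and 0.0341), and by 0.70 and 0.69 without those replicates (adjusted p = 0.0410 and 0.0104). Cldn23 fell by 1.20 against 2D cells (adjusted p = 0.0381) and Cldn15 fell by 0.57 against 3D cells (adjusted p = 0.0218).

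Among 5 relatives of JAM-A, Esam, an adhesion molecule of endothelial cells and platelets, rose by 1.24 against 2D cells (adjusted p = 0.00130) and by 1.64 against 3D cells (adjusted p = 8.8e-05). Jam2 rose by 1.15 against 2D cells (adjusted p = 0.0332) and was 0.54 above 3D cells (adjusted p = 0.126). Jam3 fell by 1.35 against 2D cells (adjusted p = 0.0316) and by 1.5 against 3D cells (adjusted p = 0.0114). Without tissue replicates 2 and 3, Jam2 passed against 3D cells (0.985, adjusted p = 1.4e-04), and Jam3 was -0.685 against 2D cells (adjusted p = 0.0743) and -0.83 against 3D cells (adjusted p = 0.00231). Of 18 plaque and polarity genes, 1 rose and 5 fell against 2D cells and 2 rose and 5 fell against 3D cells. The 27.8% that fell compare with 14.3% and 20.1% of all genes. Against 2D cells 2 (11.1%) fell after cyclic loess, and likewise 2 without tissue replicates 2 and 3. Against 3D cells 5 fell in both of these settings, and 5 rose without those replicates. After centring on bright probe sets 4 fell against each culture. The list median was -0.23 and -0.30, and after centring it was 0.05 and -0.02. Arhgef2, which codes for GEF-H1, an exchange factor that cingulin binds, read 7.94, 7.84, 7.76 and 8.11 in tissue, 10.01 to 10.41 in 3D cells and 9.90 to 10.75 in 2D cells. Every tissue array was below every culture, and Arhgef2 fell by 2.58 against 2D cells (adjusted p = 1.7e-04) and by 2.35 against 3D cells (adjusted p = 1.3e-05). The angiomotin relative Amotl2 fell by 1.35 (adjusted p = 0.0227) and 1.20 (adjusted p = 0.00100), and the scaffold gene Magi3 by 1.19 (adjusted p = 0.0398) and 1.43 (adjusted p = 0.00444). Amotl2 and Magi3 did not pass against 2D cells without tissue replicates 2 and 3 (adjusted p = 0.109 and 0.179).

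Of 19 adherens junction genes, 3 (15.8%) rose and 4 (21.1%) fell against 2D cells, where 9.87% of all genes rose and 14.3% fell. Against 3D cells 5 rose and 5 fell (26.3% each), where 15.5% of all genes rose and 20.1% fell. Without tissue replicates 2 and 3 these counts were 3 and 3, and 8 and 5. Cdh2, which codes for N-cadherin, the cadherin of neurons, glia and fibroblasts, read 11.18, 10.65, 9.33 and 11.19 in tissue, 12.48 to 12.64 in 3D cells and 11.98 to 12.28 in 2D cells. It was lower on every tissue array and fell by 1.49 against 2D cells (adjusted p = 0.0249) and by 1.98 against 3D cells (adjusted p = 0.00432), and by 0.90 and 1.38 without tissue replicates 2 and 3 (adjusted p = 0.00585 and 2.1e-05). Ctnna1 and Vcl, which code for alpha-catenin and vinculin, the links to actin, fell by 0.71 and 1.15 against 2D cells (adjusted p = 0.00860 and 0.0136) and by 0.93 and 1.17 against 3D cells (adjusted p = 0.00102 and 0.00420). Ctnnd2, the delta-catenin of neurons, rose by 1.69 against 2D cells (adjusted p = 0.0188) and by 2.35 against 3D cells (adjusted p = 1.6e-04), and the call against 2D cells was lost without tissue replicates 2 and 3 (adjusted p = 0.0549).

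**Figure D4:**
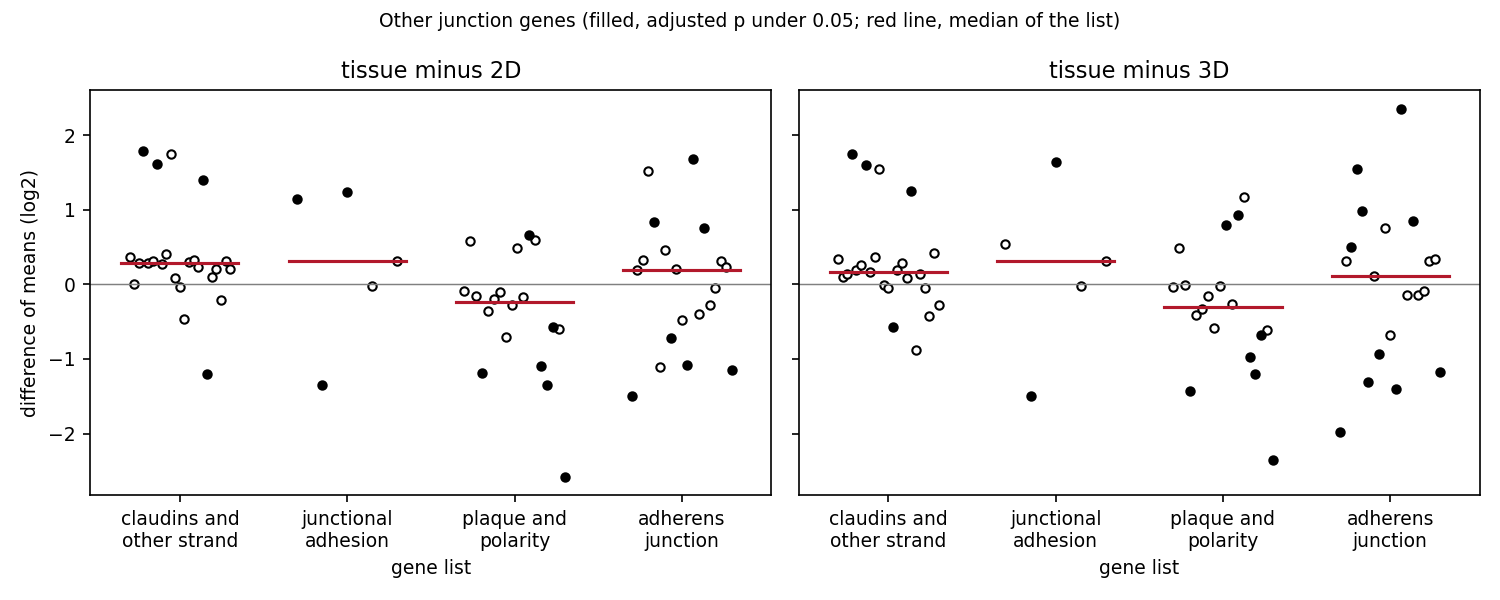
Log2 difference of means (vertical axis) for tissue minus 2D (left) and tissue minus 3D (right) of the 65 other junction genes in 4 lists (horizontal axis); each circle is 1 gene, filled where the adjusted p from limma is under 0.05, and red lines are list medians. The plaque and polarity list has its median below 0 (-0.23 and -0.30, against 0.05 and -0.02 after centring on bright probe sets), and its lowest point is Arhgef2 at -2.58 and -2.35.

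Of 8 listed repressors of Cdh1, 2 fell in tissue against 2D cells and 6 against 3D cells, where 14.3% and 20.1% of all genes fell. In either comparison 0 rose. The 6 became 4 after cyclic loess, 5 after centring on bright probe sets and 5 without tissue replicates 2 and 3, while the 2 stayed 2 in each. Tcf4 differed upward, by 0.72 from 2D cells (adjusted p = 0.120) and by 0.22 from 3D cells (adjusted p = 0.560). Snai2, which codes for the Snail family repressor Slug, read 7.79, 6.47, 7.10 and 7.07 in tissue, 11.21, 11.20, 10.71 and 10.83 in 3D cells and 10.61, 10.41, 10.01 and 11.90 in 2D cells. Every tissue array read below every culture. Snai2 fell by 3.62 against 2D cells (adjusted p = 8.8e-04) and by 3.88 against 3D cells (adjusted p = 2.5e-05). Tcf3, whose E proteins bind E-boxes, fell by 1.67 (adjusted p = 0.0326) and 1.90 (adjusted p = 0.0111), and by 0.96 and 1.19 without tissue replicates 2 and 3 (adjusted p = 0.0296 and 2.0e-04). Snai1, the Snail protein, fell by 1.35 against 3D cells (adjusted p = 0.00204) and was 0.94 below 2D cells (adjusted p = 0.0749). Zeb2 fell by 0.90 against 3D cells (adjusted p = 0.00180). In 3D against 2D cells 0 of the 8 passed limma, with 3 under 0.05 before adjustment (Zeb1, Zeb2 and Tcf4), which were all higher in 3D cells. Of the barrier genes whose promoter windows hold CAGGTG or CACCTG, F11r and Ocln were called against both cultures and Marveld2 against 3D cells only. Of those whose windows hold neither word, Cldn12 was called against 3D cells on 1 of its 2 probe sets. Tjp1 and Cgn were called in neither comparison, and Cldn1 was picked for its rise. A relation between the words and the calls was not tested. Whether these repressors act on the barrier genes here was not tested.

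**Figure D5:**
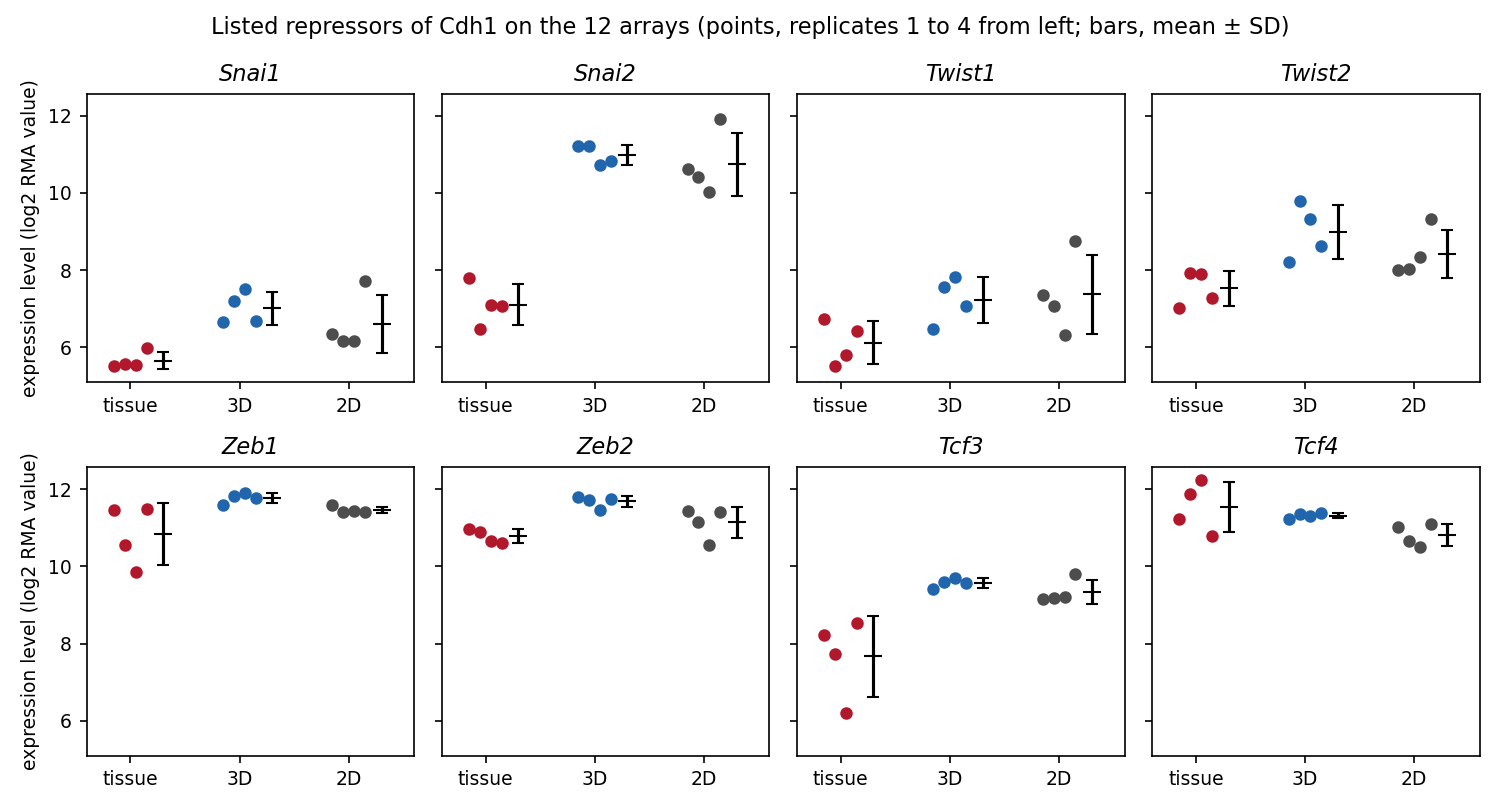
RMA expression level (log2, vertical axis) of the 8 listed Cdh1 repressors on tissue, 3D and 2D arrays (horizontal axis); points are arrays in the order of replicates 1 to 4 and bars give the mean ± SD of 4 arrays. Snai2 lies between 6.47 and 7.79 in tissue and between 10.01 and 11.90 in the cultures, while the tissue and culture ranges of Zeb1, Zeb2, Twist1 and Tcf4 overlap.

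Markers of cells known to bear such junctions were counted in the same way. Of 17 epithelial markers, 3 rose and 1 fell against 2D cells, and 3 rose and 0 fell against 3D cells. The 17.6% that rose compare with 9.87% and 15.5% of all genes. Their summed log2 level was 10.78 to 11.49 in tissue, 10.55 to 10.83 in 3D cells and 10.54 to 10.81 in 2D cells. Those that rose were Dsp, Pkp3 and Spint2, which code for the desmosome proteins desmoplakin and plakophilin-3 and for a protease inhibitor. Dsp read 6.61, 8.14, 7.92 and 6.98 in tissue, 5.17 to 6.10 in 3D cells and 4.82 to 6.26 in 2D cells, above all cultures and, as Cdh1, highest on replicates 2 and 3. It rose by 1.63 against 2D cells (adjusted p = 0.0258) and by 2.00 against 3D cells (adjusted p = 0.00384), and without replicates 2 and 3 by 1.38 against 3D cells (adjusted p = 0.00386), with a difference of 1.01 from 2D cells that did not pass (adjusted p = 0.128). Of the 6 keratins on the list, Krt19 fell by 1.77 against 2D cells (adjusted p = 0.0345, and 0.150 without tissue replicates 2 and 3). It did not pass against 3D cells, and Krt5, Krt7, Krt8, Krt14 and Krt18 passed in neither comparison (adjusted p from 0.0684 to 0.987). Of 10 epithelial transcription factors and splicing regulators, Ehf rose by 1.23 against 2D cells (adjusted p = 0.0256) and by 1.36 against 3D cells (adjusted p = 0.0111), and Grhl3 rose by 1.14 against 3D cells (adjusted p = 0.0322). The rise of Ehf was 0.65 and 0.78 without tissue replicates 2 and 3 (adjusted p = 0.0240 and 0.00334).

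Of 10 perineurial markers, 5 rose and 1 fell against 2D cells, and 6 rose and 1 fell against 3D cells, where 9.87% and 15.5% of all genes rose. These counts were 6 and 0, and 8 and 1, without tissue replicates 2 and 3. Tenm2 rose by 4.28 and 4.75 (adjusted p = 4.1e-04 and 1.0e-05), Kcnj13 by 2.91 and 2.87 (adjusted p = 0.00526 and 0.00274) and Lypd2 by 2.20 and 2.15 (adjusted p = 0.00169 and 7.7e-04). The one that fell was Slc2a1, which codes for the glucose transporter GLUT1 of perineurium and of many other cells. It fell by 1.24 against 2D cells (adjusted p = 0.0202) and by 0.53 against 3D cells (adjusted p = 0.0179), and did not pass against 2D cells without tissue replicates 2 and 3 (adjusted p = 0.0564). The summed log2 level of the list was 12.22 to 13.10 in tissue, 11.90 to 12.23 in 3D cells and 12.35 to 13.13 in 2D cells. Of 10 markers of myelinating Schwann cells, 1 rose and 1 fell against 2D cells, and 3 rose and 1 fell against 3D cells. Of all genes, 9.87% and 15.5% rose and 14.3% and 20.1% fell in these comparisons. Without tissue replicates 2 and 3 the counts of Schwann cell markers were 3 and 1, and 7 and 1. Those 10 markers had summed log2 levels of 13.59 to 14.87 in tissue, 13.81 to 13.98 in 3D cells and 13.77 to 14.38 in 2D cells. Mbp, the myelin basic protein gene, rose by 1.25 (adjusted p = 0.0422) and 1.69 (adjusted p = 0.00327), and Egr2, a transcription factor of myelination, fell by 4.62 against 2D cells (adjusted p = 2.7e-04) and fell by 4.10 against 3D cells (adjusted p = 3.6e-05). The part of any of these cell types in the levels of the barrier genes was not tested.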

How the data were processed

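Log2 expression levels were deposited by the authors as 1 table for 12 Affymetrix mouse genome arrays. Expression Console made them with RMA, in steps of background correction, quantile normalization and summarization of probes, and its version was not given in the sources at hand. RMA values carry no detection call, and quantile normalization hides a shift shared by most genes. Scanner files were not used, so no batch could be examined, and the number of arrays limits the precision.

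Of 45101 probe sets, 64 controls were left out. By the platform annotation 34945 of the 45037 others carry 1 gene symbol. A gene with several was represented by its brightest probe set, judged by the mean of 12 arrays. Pairs of groups were compared by limma's lmFit and eBayes (limma 3.58.1, R 4.3.3, statmod 1.5.0) on 4 arrays against 4. P-values were adjusted by Benjamini-Hochberg over all 45037 probe sets and called under 0.05. Every adjusted p is from this fit, except where its sentence leaves out arrays or names another fit or scaling. Exact two-sided permutation tests used the 70 ways of dividing 8 arrays. The scripts were tested on simulated data. The search for identical arrays found 0 pairs.

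The 8 genes, the gene lists and the tests were chosen with earlier results of these data known. Named genes are the 8, the 4 of each list with the smallest p in a comparison, and the 5 nearest to Cldn1 and to Cdh1. Grhl1, Esrp1, Dbh and most keratins were named outside this rule. Some listed genes were not analysed here. Summed marker levels are log2 of sums of linear values. Of the other lists, 4 of 12 sympathetic, 5 of 12 muscle and 3 of 10 fibroblast markers rose against 2D cells, and 9, 7 and 3 against 3D cells. Of all genes 9.87% and 15.5% rose. Against each culture 1 fibroblast marker fell, and 0 of the sympathetic and muscle markers did.

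The alternatives were 1 fit of 12 arrays, a replicate block, array weights, a robust prior with a trend, probe sets of log2 6 or more on 4 or more arrays alone (26551), cyclic loess, centring on bright probe sets, other choices of probe set, the methods' t-test (adjusted and not), and the omission of single arrays. Fits without tissue replicates 2 and 3, or without 2D replicate 4 and 3D replicate 1, and the counts of single lists under both scalings were added after seeing the data.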

Additional observations from a re-analysis of the deposited data

Results flagged for a closer look

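Among the 8 genes, 3 readings were separated from the other arrays of their group by most or all of the group's range, in 24 groups of 4 arrays looked at, where chance alone gives about 1 in 20 groups. Cdh1 read 4.39 on 3D replicate 2, while the other 3D arrays read 3.93 to 3.97. Marveld2 read 4.52 on 3D replicate 1, where the other 3 arrays all read 4.59, a small gap that stands out because those 3 are alike. Marveld2 read 6.03 on 2D replicate 3, where the other 2D arrays read 4.58 to 4.79, and this array also held the highest 2D reading of Cdh1 (5.07).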

How the results depend on the processing

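For the 8 genes between 3D and 2D cells, the count of 0 became 1 by the methods' t-test without adjustment, and was 0 without any 1 array. For the 65 other junction genes it became 1 with array weights, 8 by that t-test, 6 in the fit that omits 3D replicate 1 and 2D replicate 4, and 0 to 1 without any 1 array, the 1 arising without 2D replicate 4. Against 2D cells, the 2 barrier genes called in tissue became 1 with a replicate block, 1 of 3 tested without dim probe sets, 1 by the methods' t-test with adjustment, 0 without tissue replicates 2 and 3 and 1 to 3 without any 1 array, the 1 without tissue replicate 2 or 3 or 1 of 2D replicates 1, 2 and 4 and the 3 without tissue replicate 1. The 20 other junction genes became 6 by the adjusted t-test and 7 to 18 without any 1 array, with 7 without tissue replicate 2 and 10, 8, 11 and 8 without 2D replicates 1 to 4. Against 3D cells, the 4 barrier genes became 2 by the adjusted t-test and 2 to 6 without any 1 array, the 2 without tissue replicate 2 or 1 of 3D replicates 2, 3 and 4, and the 23 others 16 to 31 without any 1 array.

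With the replicate block, counts were 0, 1 and 3 of the barrier genes and 0, 21 and 22 of the other junction genes between 3D and 2D, tissue and 2D, and tissue and 3D. Ocln against 2D cells (adjusted p = 0.0535) and Cldn12 against 3D cells (adjusted p = 0.0690) lost their call. Deviations of same-numbered arrays correlated from -0.067 to 0.407 over the probe sets, and not every array correlated best with its own number, so the samples share only a number.

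Directions turned as follows. Between 3D and 2D cells, Cdh1 was 0.0801 and Ocln -0.0063 with array weights, Cgn was 0.0163 with the mean of its probe sets and F11r was 0.237 without 3D replicate 1 and 2D replicate 4. Without any 1 array Cdh1 ran from -0.441 to 0.0658, Ocln from -0.0142 to 0.0625, Cgn from -0.108 to 0.0117 and F11r from -0.258 to 0.075. Cldn12 in tissue against 2D cells was -0.57 with the mean of its probe sets, -1.16 with the probe set of highest SD, -0.20 without tissue replicates 2 and 3 and -0.10 to 0.19 without any 1 array. Against 3D cells it was -0.08 and -0.78 under those probe set choices. The cause was not tested, apart from the probe sets of Cldn12. Tjp1 against 3D cells passed in 1 fit of 12 arrays (adjusted p = 0.0266) and without dim probe sets (0.0453), and Cgn when arrays were centred (0.0425).

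Scaling moved the balance of all genes. Of genes called in tissue, 40.9% were higher against 2D cells, 52.3% after cyclic loess and 61.6% after centring, which shifted the median of all genes to 0.31; against 3D cells these shares were 43.5%, 52.3% and 60.6%. Ocln, F11r and Marveld2 kept the calls named for them under both scalings. Ocln, Cgn, Marveld2 and the culture levels of Cdh1 lie near the dim end of the scale, which limits their folds.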
